A study of Mus musculus with 8 samples.

Results

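The genes described here were 10 products of the intestinal goblet cell: the mucus components Muc2, Fcgbp, Zg16 and Clca1, the trefoil peptide gene Tff3, the protease inhibitor gene Spink4, the mucin-folding factor Agr2, the proteases Klk1 and Tpsg1, and the membrane mucin Muc13. They were chosen by gene symbol, and each matched 1 of the 27998 genes in the matrices. Transcripts of single EpCAM+ DAPI- epithelial cells, sorted from small intestine crypts of adult female C57BL/6 mice, had been sequenced. The KO mice were homozygous for a deletion of ieCtnnb1, an intestinal enhancer upstream of Ctnnb1 that leaves Ctnnb1 itself in place (Ctnnb1 Δi.enh). The WT mice were not plain wild type: they were H11 i.enh reporter mice, which carry the Shh promoter, the core of ieCtnnb1 and LacZ at the H11 locus and keep the enhancer. The labels list 4 samples per group, while the values came as 1 matrix per group with the cells of its animals pooled, so each group was 1 sample. No test between groups was possible, and every interval below is a 95% interval that covers counting error only.

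Values were raw numbers of unique molecular identifiers (UMIs), where each UMI represents a single captured transcript. After filtering, 13095 WT cells with a median of 6675 UMIs and 8658 KO cells with a median of 8691.5 UMIs were kept. Of the cell barcodes, 57 occurred in both matrices. Ctnnb1, the gene next to the deleted enhancer, had a CPM (its UMIs per 1e+06 UMIs of the cells summed) of 119 in WT and 91.8 in KO. The log2 ratio of KO to WT was −0.37 (−0.41 to −0.34), which checks the labels only in part, since the gene itself was not deleted. Within goblet cells the KO cells were far deeper, with a mean of 17520 UMIs against 6603 in WT, so that a share of UMIs and a number of UMIs per cell are different quantities here and both are given.

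Goblet cells fill their apical granules with Muc2, a very large mucin that is folded and cross-linked in the endoplasmic reticulum, glycosylated in the Golgi and released as a gel. Fcgbp, a protein with many von Willebrand factor D domains, and Clca1, a metalloprotease able to cleave Muc2, are released with it, as are the lectin Zg16, which binds Gram-positive bacteria, and Tff3, a small trefoil peptide that aids epithelial repair. Agr2 is a protein disulfide isomerase of the endoplasmic reticulum that Muc2 production needs. In crypts of the small intestine goblet cells lie beside Paneth cells, a related secretory cell type that releases defensins and lysozyme, and both arise from Atoh1-positive progenitors.

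In mouse build GRCm38, Muc2 (ENSMUSG00000025515) spans chromosome 7, 141690340 to 141754693, and Fcgbp (ENSMUSG00000047730) spans chromosome 7, 28071236 to 28120862. Agr2 (ENSMUSG00000020581) spans chromosome 12, 35992907 to 36004087, and all 3 are read from the plus strand. The RefSeq promoter windows of these 3 genes (250 bases before to 50 after the start, build GRCm38.p6, all on the plus strand) are shown because Muc2 and Fcgbp rank together across the goblet clusters below and Agr2 does not. The windows are chr7:141690090-141690389, chr7:28070986-28071285 and chr12:35992675-35992974. Capitals mark an E-box, CAGCTG, that reads the same on both strands, and a second motif, TATAAA.
Muc2: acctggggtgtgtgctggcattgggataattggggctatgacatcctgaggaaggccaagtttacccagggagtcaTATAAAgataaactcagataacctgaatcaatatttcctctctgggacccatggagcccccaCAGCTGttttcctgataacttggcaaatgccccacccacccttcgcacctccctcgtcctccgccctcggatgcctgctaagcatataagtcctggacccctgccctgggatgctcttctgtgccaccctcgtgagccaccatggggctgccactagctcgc
Fcgbp: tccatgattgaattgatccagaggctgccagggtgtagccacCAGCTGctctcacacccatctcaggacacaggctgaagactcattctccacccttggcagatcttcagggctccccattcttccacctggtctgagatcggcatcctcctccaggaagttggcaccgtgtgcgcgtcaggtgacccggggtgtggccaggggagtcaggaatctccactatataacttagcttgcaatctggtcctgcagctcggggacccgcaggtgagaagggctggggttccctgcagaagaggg
Agr2: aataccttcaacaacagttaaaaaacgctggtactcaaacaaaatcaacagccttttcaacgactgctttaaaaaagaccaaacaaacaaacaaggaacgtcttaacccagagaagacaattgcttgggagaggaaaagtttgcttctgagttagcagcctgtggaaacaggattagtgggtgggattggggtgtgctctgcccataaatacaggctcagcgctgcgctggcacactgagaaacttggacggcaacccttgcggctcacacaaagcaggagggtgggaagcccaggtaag
CAGCTG occurred once in the Muc2 window, 112 bases before the start, and once in the Fcgbp window, 208 bases before it. TATAAA occurred once, in the Muc2 window at 174 bases before the start. The Agr2 window held none of the 5 motifs searched on both strands. The others were a second E-box (CATCTG), a forkhead motif (TGTTTAC, in 3.65% of all windows) and an unfolded protein response motif (CCACGT, in 8.31%). Of all 32851 promoter windows of this length, 16.3% held the first E-box and 13.6% held TATAAA. The second E-box was present in 17.2% of all windows and occurred in those of Klk1 and Muc13. Windows were found for 6 of the 10 genes, not including Tff3, Zg16, Clca1 and Spink4.

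Cells were grouped into classes by markers that left the 10 genes out. GC-like (goblet) cells numbered 2062 in WT and 941 in KO, and PC-like (Paneth) cells 3469 and 1152. Of the 25 goblet markers, among them Spdef, Bcas1, Rep15 and Creb3l1, 24 had UMIs in GC-like cells of each matrix, and their summed level was 4414 CPM in WT and 2828 CPM in KO. In TC-like (tuft) cells this sum was 868 and 520 CPM. Droplet data also hold RNA released by other cells, and TC-like cells, which should make little mucus, were used to read that background. All 18 Paneth markers had UMIs in GC-like cells, at a summed 51917 CPM in WT and 27938 CPM in KO, and in TC-like cells at 169299 and 89485 CPM, so Paneth transcripts were present outside Paneth cells and at a lower share in KO. Their part in the levels below was not tested.

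Together the 10 genes made up 12.5% of all UMIs in WT GC-like cells and 8.37% in KO. In PC-like cells this share was 1.95% and 1.47%, in EEC-like (enteroendocrine) cells 1.86% and 0.884%, in TC-like cells 1.58% and 0.621%, and in CBC-like (crypt base columnar) cells 0.547% and 0.330%. In each matrix 9 of the 10 genes were highest in GC-like cells of the 8 named classes, the exception being Muc13.

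**Figure D1:**
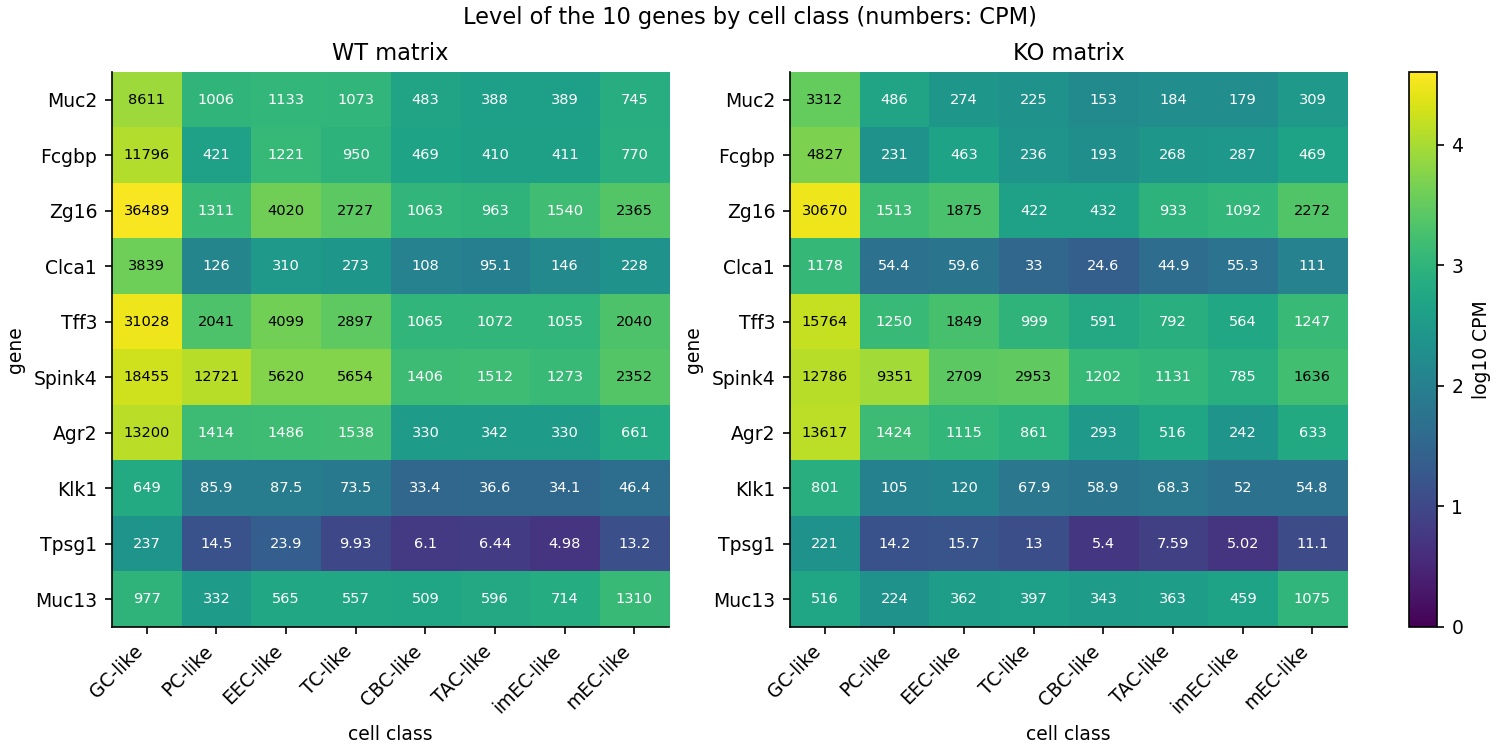
CPM of each gene (rows) in the 8 named cell classes (columns) of the WT and the KO matrix, coloured on a log10 scale with the CPM printed in each cell. The rows of 9 genes are brightest in the GC-like column, Spink4 is nearly as bright in the PC-like column at 12721 CPM in WT, and Muc13 is brightest in the mEC-like column at 1310 CPM.

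The gel-forming mucin Muc2 was at 8611 CPM (8562 to 8661) in WT GC-like cells and at 3312 CPM (3284 to 3340) in KO. The next class in WT was EEC-like at 1133 CPM, 7.60-fold lower, followed by TC-like at 1073 and PC-like at 1005 CPM, and the counting intervals of these neighbours overlapped. By CPM, WT Paneth cells thus could not be set above the tuft background for Muc2. In KO they were at 486 CPM against 225 CPM in TC-like cells. CBC-like cells were lower, at 483 CPM in WT, so the WT reading holds against tuft cells only. UMIs per cell were higher in PC-like than in TC-like cells of WT, with medians of 18 and 2 Muc2 UMIs, at median depths of 22760 and 4022.5 UMIs. After each cell was thinned to 1000 UMIs, Muc2 was found in 58.3% of WT PC-like cells, 43.0% of TC-like cells and 95.2% of GC-like cells. Because PC-like cells were many and deep, they held 35.2% of all Muc2 UMIs in WT, beside 52.5% in GC-like cells.

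Fcgbp was at 11796 CPM in WT GC-like cells and 4827 CPM in KO, and in PC-like cells at 421 and 231 CPM, below the TC-like level in WT (950 CPM) and close to it in KO (236 CPM). The protease gene Clca1 (ENSMUSG00000028255, chromosome 3, minus strand, 145003817 to 145032776) was at 3839 CPM in WT GC-like cells, 310 CPM in EEC-like cells, 273 CPM in TC-like cells and 126 CPM in PC-like cells. Neither gene was thus above the tuft background in WT Paneth cells. Zg16 (ENSMUSG00000049350, chromosome 7, minus strand, 127050156 to 127087328) was at 36489 CPM in WT GC-like cells and 30670 CPM in KO, and GC-like cells held 74.9% and 78.2% of all its UMIs. Its lowest classes were TAC-like (transit-amplifying) cells at 963 CPM in WT and TC-like cells at 422 CPM in KO. The genes Gm44939 and Gm22747 overlap Zg16 on the other strand, and whether counting used strand is not given in the sources used here.

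Tff3 (ENSMUSG00000024029, chromosome 17, minus strand, 31125306 to 31129646) was at 31028 CPM in WT GC-like cells and 15764 CPM in KO. It was followed by EEC-like cells at 4099 CPM in WT and 1849 CPM in KO. PC-like cells were at 2041 CPM in WT, which overlapped the counting interval of mEC-like (mature enterocyte) cells, and at 1250 CPM in KO.

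Spink4, a Kazal-type inhibitor of serine proteases (ENSMUSG00000028415, chromosome 4, plus strand, 40920052 to 40931395), was the least restricted to goblet cells of the secreted products. It stood at 18455 CPM in WT GC-like cells and 12721 CPM in PC-like cells, a ratio of 1.45, and in KO at 12786 and 9351 CPM. PC-like cells held 74.4% of all Spink4 UMIs in WT and 61.5% in KO, with GC-like cells at 18.8% and 28.0%. The median was 241 UMIs per WT PC-like cell against 83 per GC-like cell and 9 per TC-like cell. Among the PC-like clusters the highest value was in cluster 19, a small group of 160 WT and 32 KO cells led by Retnlb, Reg4, Rnase1 and Ccl9, in which Spink4 reached 29239 CPM in WT and 39689 CPM in KO. Its 18 Paneth markers summed to 460786 CPM in WT. Muc2 was at 3331 CPM there, against 793 to 1069 CPM in the other PC-like clusters of WT, and Tff3 at 9514 against 1159 to 2608 CPM. Doublets of a goblet and a Paneth cell were not removed, and their part was not tested.

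Agr2 was at 13200 CPM in WT GC-like cells and 13617 CPM in KO. The classes that followed in WT, TC-like at 1538 and EEC-like at 1486 CPM, overlapped in their counting intervals. A WT PC-like cell held a median of 22 Agr2 UMIs and a TC-like cell 1. Klk1, the tissue kallikrein (ENSMUSG00000063903, chromosome 7, plus strand, 44225360 to 44229618), was at 649 CPM in WT GC-like cells and 801 CPM in KO, and in the other WT classes at 33.4 CPM (CBC-like) to 87.5 CPM (EEC-like). Klk1 has close paralogs, among which reads can be split or lost, so its values are uncertain. Tpsg1, a membrane-anchored tryptase (ENSMUSG00000033200, chromosome 17, plus strand, 25369273 to 25374442), was at 237 CPM in WT GC-like cells and 221 CPM in KO, and at 23.9 CPM or less in every other named class of either matrix. Cacna1h overlaps Tpsg1 on the opposite strand.

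Muc13, a transmembrane mucin of the apical surface (ENSMUSG00000022824, chromosome 16, plus strand, 33794037 to 33819934, overlapped by Gm15657 on the minus strand), did not share the goblet pattern. It was at 1310 CPM in WT mEC-like cells, 977 CPM in GC-like cells, 714 CPM in imEC-like (immature enterocyte) cells and 332 CPM in PC-like cells, a range of 3.95-fold over the 8 classes, where the range for Muc2 was 22.2-fold. In KO it was at 1075 CPM in mEC-like and 516 CPM in GC-like cells. Across the 39 combinations of cluster and matrix with at least 50 cells, log2(CPM + 10) of Muc13 had a Pearson r of 0.27 with the summed level of the 10 genes, and each of the other 9 had an r of 0.86 or more. These points share 2 libraries and their depth, and the sum includes each gene.

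The 5 other genes whose levels tracked the sum most closely, of 8447 genes with at least 1000 UMIs, were Rep15 (r = 0.96), Kdelr3 (0.95), Bace2, Bcas1 and Gcnt3 (0.94 each). Rep15 is a Rab15-binding protein, Kdelr3 a receptor that returns proteins to the endoplasmic reticulum, Bace2 an aspartyl protease and Gcnt3 a mucin-type glycosyltransferase. Rep15, Bcas1, Bace2 and Gcnt3 were also among the markers that named the goblet clusters. Rep15 was at 225 CPM in WT GC-like cells and 29.8 CPM in TC-like cells, and at 171 and 16.0 CPM in KO.

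UMIs of each gene were also set per 100 Zg16 UMIs of the same class. For Clca1 this was 10.5 in WT GC-like cells and 9.51 to 10.1 in 6 of the other 7 classes, with EEC-like cells at 7.72. In KO it was 3.84 in GC-like cells, 3.18 to 5.69 in 6 other classes and 7.82 in TC-like cells, which rested on 33 Clca1 and 422 Zg16 UMIs. The part of released RNA and of doublets in these values was not tested. Spink4 varied more between classes in WT, at 50.6 per 100 Zg16 UMIs in GC-like cells, 970 in PC-like cells and 207 in TC-like cells. Agr2 was at 36.2, 108 and 56.4 and Muc2 at 23.6, 76.7 and 39.3 in the same classes. In KO the TC-like ratio was above the PC-like ratio for all 3, for Spink4 at 700 against 618. The WT TC-like ratios rested on 2746 Zg16 UMIs, of which 1087 lay in 1 cell, and were not recomputed without it, so no order of Paneth and tuft cells is read from them.

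**Figure D2:**
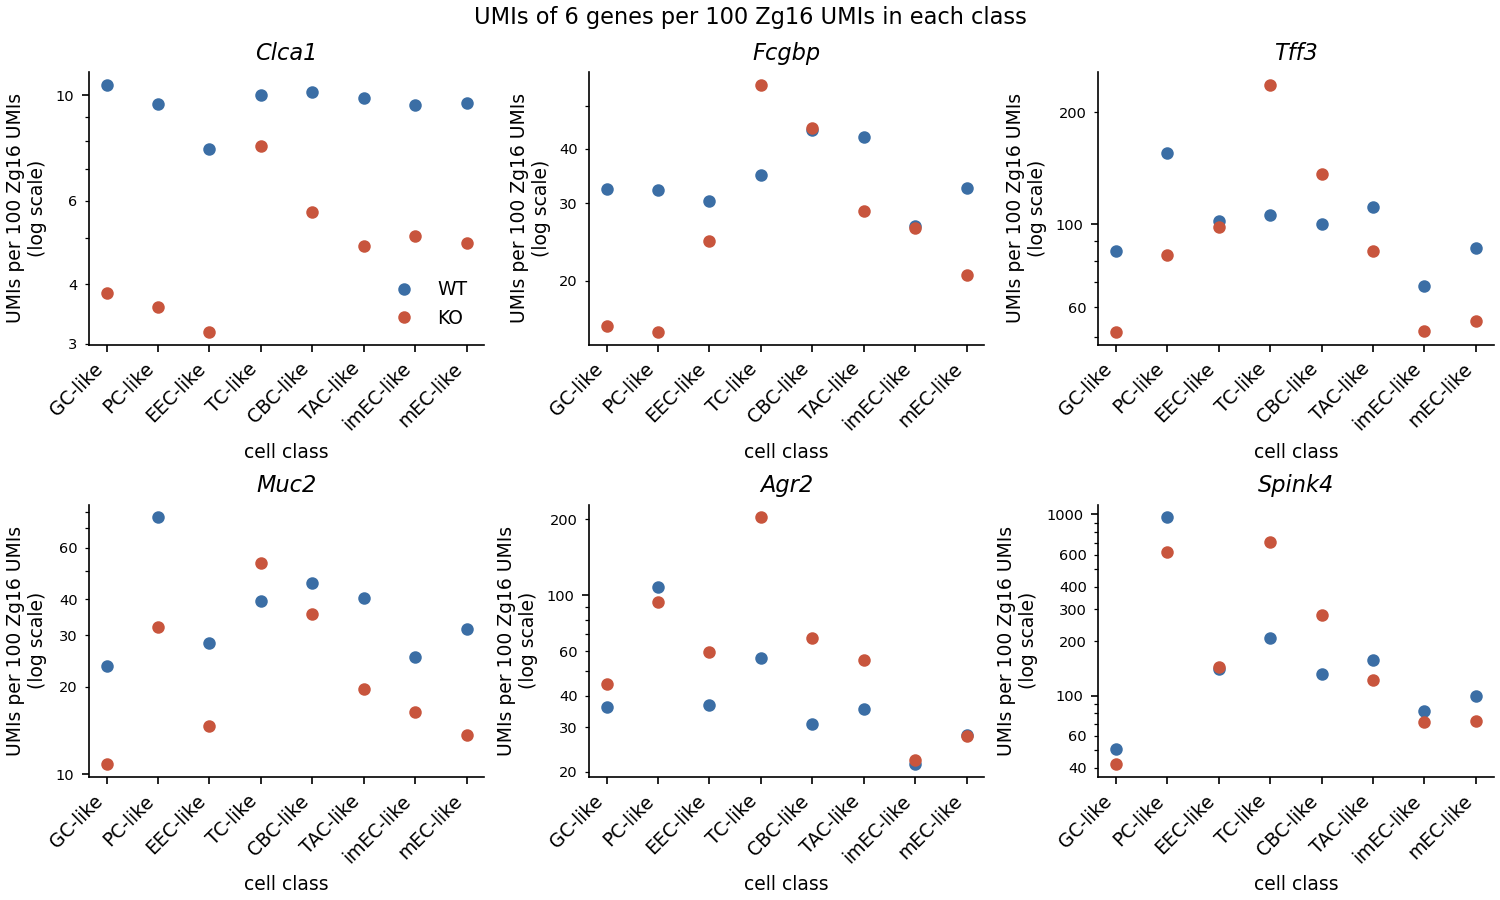
UMIs of 6 genes per 100 Zg16 UMIs (log scale) in the 8 named classes, WT in blue and KO in red. Clca1 lies within 7.72 to 10.5 over all WT classes and lower in KO, whereas Spink4 peaks in the PC-like column at 970 in WT.

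Goblet cells fell into 3 clusters, numbered 3, 13 and 15. Cluster 3 (907 WT and 592 KO cells, led by Creb3l1, Pdia5 and Txndc5) had the highest share of UMIs from cell cycle genes, 0.854% in WT and 0.617% in KO. In cluster 13 (559 and 242 cells, led by Rgs2, S100a6 and Scin) the cell cycle share was 0.118% and 0.192%. In cluster 15 (596 and 107 cells, led by S100a6, Ido1 and AW112010) it was 0.165% and 0.155%. Cluster 15 was shallow, with medians of 1597 UMIs in WT and 1647 in KO, while cluster 3 had 9507 and 21219. The 10 genes took 6.84% of WT UMIs in cluster 3, 21.6% in cluster 13 and 29.6% in cluster 15, and 5.82%, 16.1% and 31.1% in KO. All 10 genes were lower in CPM in cluster 3 than in the other goblet clusters pooled, in each matrix. On mean UMIs per cell this held for 5 genes in WT and 8 in KO. The 18 Paneth markers summed to 100673 CPM in WT cluster 15 and 97040 CPM in KO, and their part in its levels was not tested.

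Among clusters 13 and 15 the genes split into 2 sets. Muc2, Fcgbp, Zg16, Clca1, Tff3 and Muc13 had their highest CPM in cluster 15 of each matrix, whereas Agr2, Spink4, Klk1 and Tpsg1 had it in cluster 13. Zg16 was at 12508 CPM in cluster 3, 63829.5 CPM in cluster 13 and 135055 CPM in cluster 15 of WT, and at 18249, 63534 and 178528 CPM in KO. Fcgbp followed with 5428, 18852 and 38456 CPM in WT. Agr2 was at 11483 CPM in cluster 3, 20617 CPM in cluster 13 and 7208 CPM in cluster 15 of WT, and at 11643, 22313 and 10075 CPM in KO. Spink4 was at 36879.7 CPM in cluster 13 and 14033 CPM in cluster 15 of WT. The secreted gel components thus had their highest share where the folding factor Agr2 had a low one. A share rests on the other transcripts of a cell: in UMIs per cell WT cluster 15 held 302 Zg16 UMIs on average against 363 in cluster 13, and 16.1 against 117 Agr2 UMIs.

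**Figure D3:**
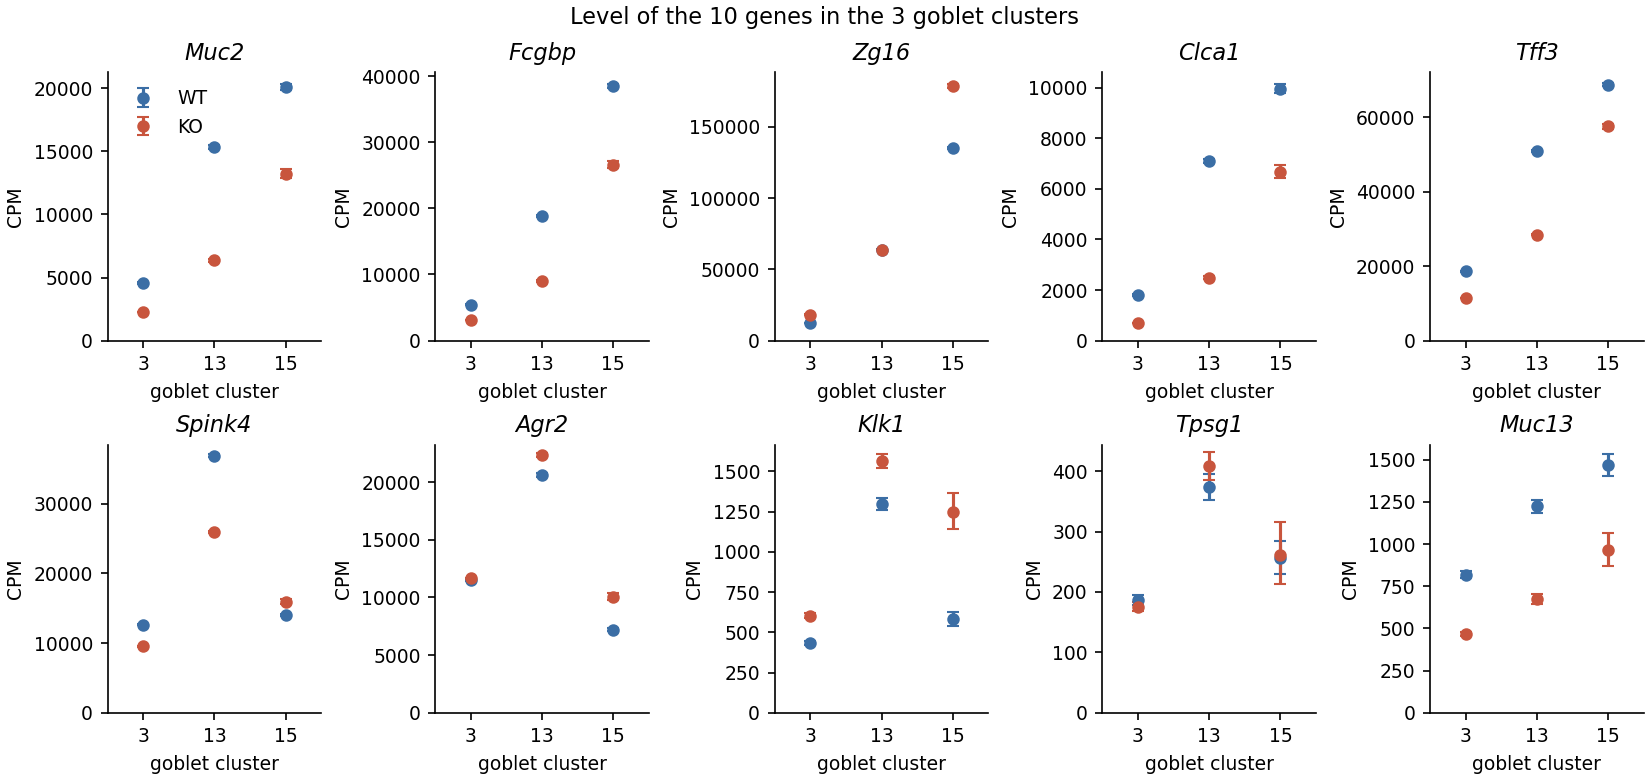
CPM (vertical axis, from 0) of the 10 genes in goblet clusters 3, 13 and 15 (horizontal axis), WT in blue and KO in red, with 95% Poisson intervals that are mostly smaller than the points. Zg16 climbs to 135055 CPM in WT cluster 15, while Agr2 is at 20617 CPM in cluster 13 and 7208 CPM in cluster 15.

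Within the clusters single cells differed widely in Zg16. In WT cluster 15 the 10th percentile was 5 UMIs per cell, the median 59 and the 90th percentile 1075, and in KO they were 2, 42 and 2973. In WT cluster 3 the same percentiles were 3, 34 and 379 UMIs, and in KO 4, 145 and 1209. Agr2 was more even in cluster 3, with a median of 112 and a 90th percentile of 200 UMIs in WT and 236 and 466 in KO. In cluster 15 Agr2 also varied, with a 10th percentile of 1, a median of 8 and a 90th percentile of 44 UMIs in WT. In KO these were 1, 8 and 116 UMIs. None of these values was corrected for the depth of the cells. The highest Zg16 value in any goblet cell was 2321 UMIs in WT and 4252 in KO.

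**Figure D4:**
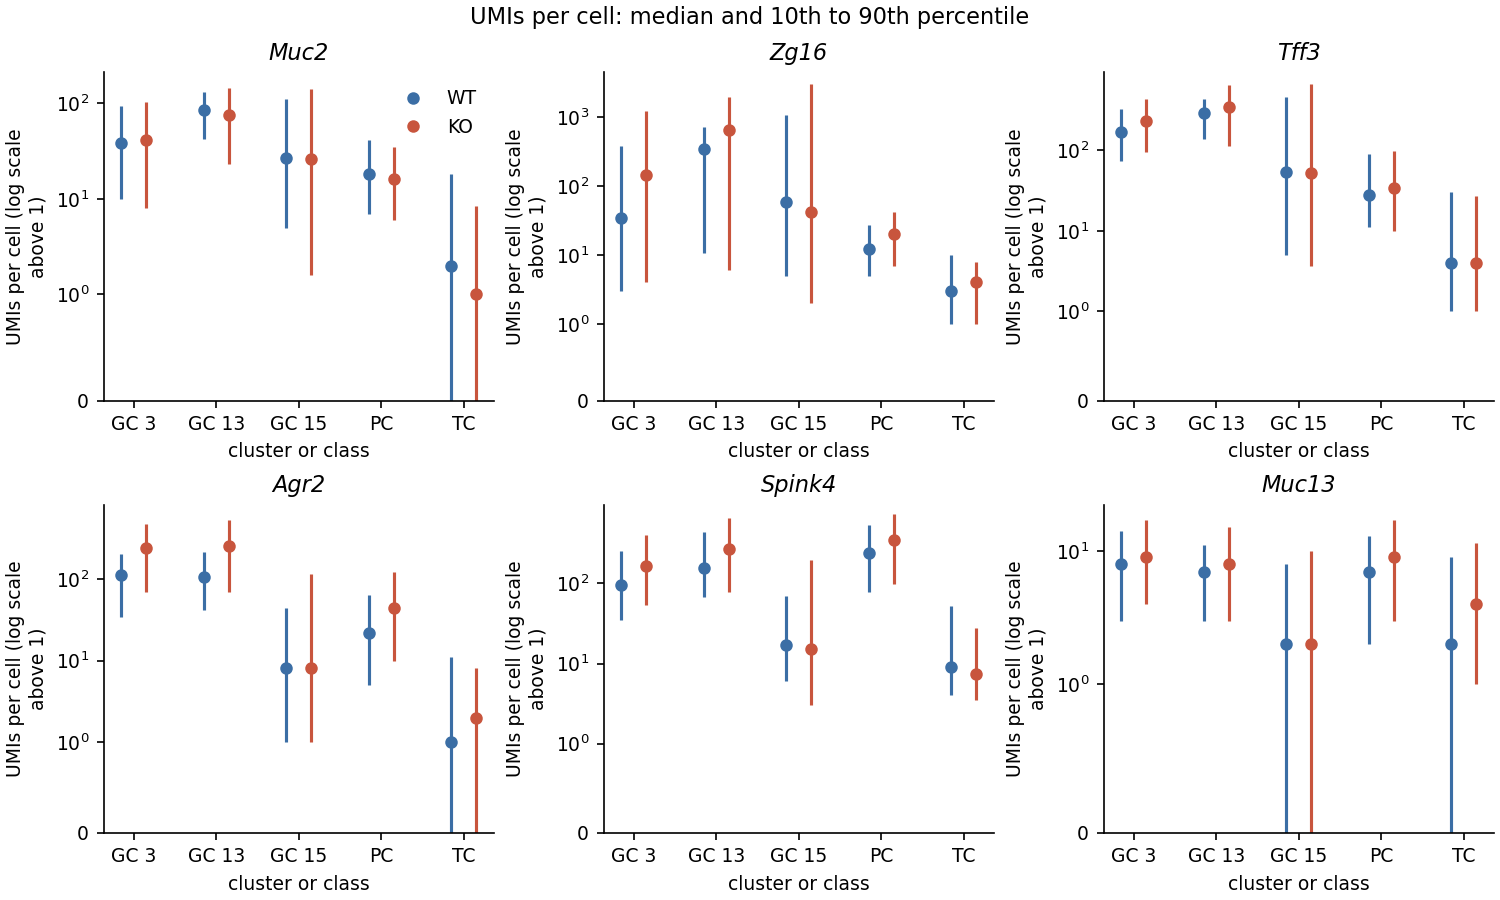
UMIs per cell of 6 genes (log scale above 1) in goblet clusters 3, 13 and 15, PC-like and TC-like cells, with the median as a point and the 10th to 90th percentile as a line, WT in blue and KO in red. Zg16 spans 5 to 1075 UMIs in WT cluster 15, and Spink4 has a higher median in PC-like cells (241 in WT) than in WT cluster 15 (17). The UMIs are not corrected for depth, which is far lower in cluster 15. By CPM the order is the opposite, with Spink4 at 12721 CPM in WT PC-like cells and 14033 CPM in WT cluster 15.

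Across single goblet cells thinned to 1000 UMIs Muc2, Fcgbp, Zg16, Clca1 and Tff3 had the highest rank correlations. In 1946 WT GC-like cells Spearman's rho was 0.81 for Tff3 with Zg16, 0.78 for Fcgbp with Zg16 and 0.73 for Muc2 with Fcgbp, and in 923 KO cells these were 0.64, 0.62 and 0.62. Agr2 had a rho of −0.09 with Fcgbp and 0.03 with Muc2 in WT. In WT cluster 15 (481 cells) Tff3 and Zg16 had a rho of 0.85, while Fcgbp had −0.33 with Agr2 and −0.40 with Spink4. Negative values this large were not general. The lowest rho of all 45 pairs was 0.003 in WT cluster 3 and −0.31 in WT cluster 13. In KO it was −0.06 in cluster 3, −0.16 in cluster 13 and −0.22 in cluster 15. The cells share 1 library per matrix, and genes that take a large part of 1000 UMIs leave less for the others. With thinned cells a WT GC-like cell had UMIs of a median of 8 of the 10 genes and a KO cell of 7, against 4 and 2 in TC-like cells.

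KO goblet cells had a lower share of UMIs from most of the 10 genes than WT goblet cells. The median log2 ratio of KO to WT in CPM was −0.73 over the 10 genes (−0.75 to −0.70, the medians of the genes' interval bounds), beside −0.29 over all 10508 genes with at least 50 UMIs in GC-like cells. Of the 10 genes, 8 were lower in KO, and 3 were lower by at least 1 log2 unit, as were 15.6% of all genes tested. None was higher by that much, beside 1.95% of all genes. The largest differences were in Clca1, at −1.70 (−1.73 to −1.68), Muc2, at −1.38 (−1.39 to −1.36), and Fcgbp, at −1.29 (−1.30 to −1.28). Tff3 was at −0.98, Muc13 at −0.92 and Spink4 at −0.53. Zg16 was at −0.25, Tpsg1 at −0.10 (−0.17 to −0.03), Agr2 at 0.04 and Klk1 at 0.30.

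In UMIs per cell the direction was the opposite for most genes. KO goblet cells held more UMIs of 9 of the 10 genes, with a median log2 ratio of 0.68, beside a log2 ratio of 1.41 in total UMIs per cell. On this scale 4 genes were higher by at least 1 log2 unit, beside 55.9% of all genes tested, and none was lower by that much, beside 0.419%. The 4 were Klk1 (4.28 UMIs per cell in WT and 14.0 in KO), Agr2 (87.2 and 239), Tpsg1 (1.56 and 3.88) and Zg16 (241 and 537). Muc2 was nearly level, at 56.9 UMIs per WT cell and 58.0 per KO cell, Fcgbp at 77.9 and 84.6, and Clca1 was lower in KO, at 25.3 and 20.6. KO cells thus held more UMIs in all, and not correspondingly more of Muc2, Fcgbp or Clca1. Whether the depth of the cells or of the library moved these values was not tested, and with 1 library per group the library and the genotype cannot be told apart.

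**Figure D5:**
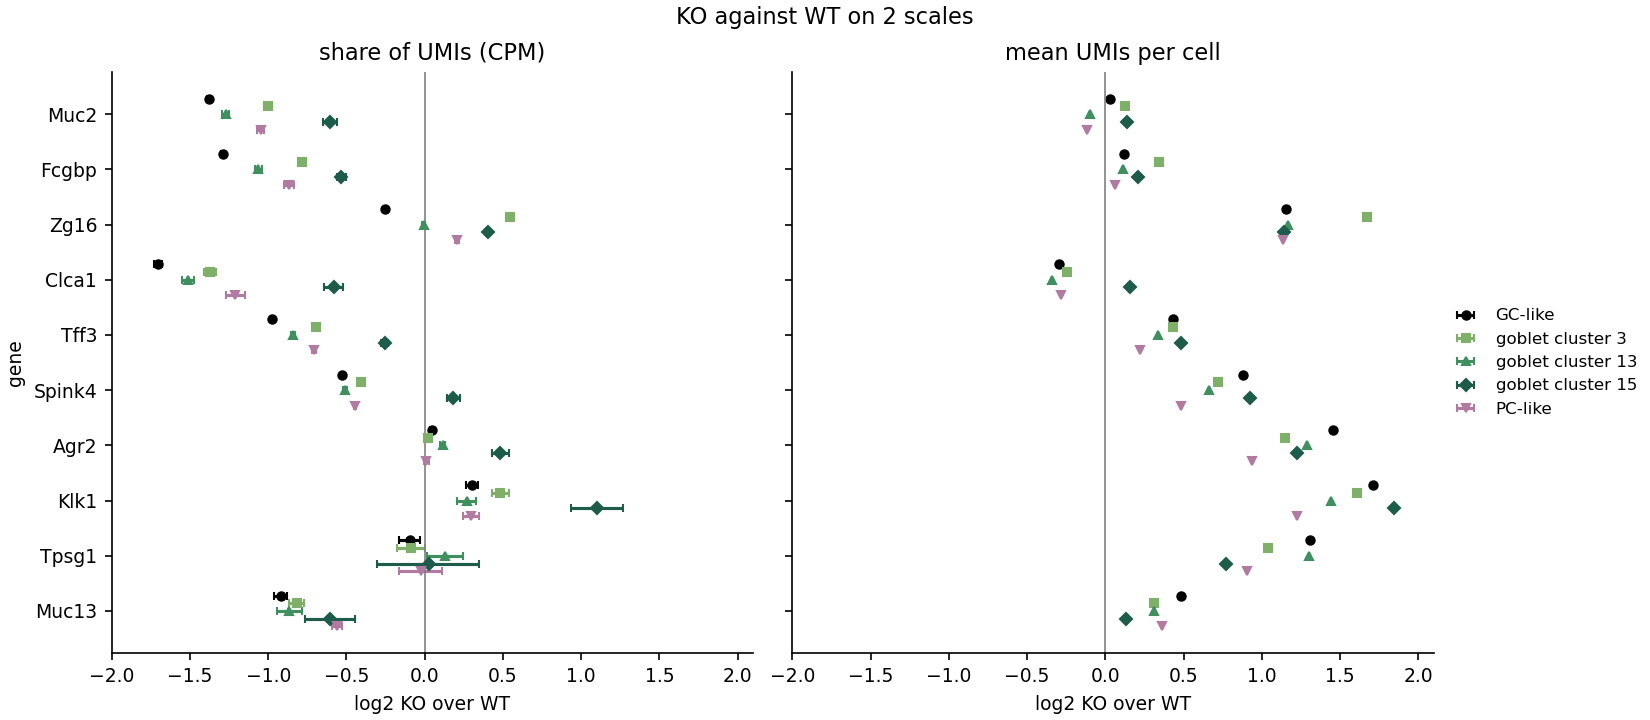
Log2 ratio of KO to WT for each gene in CPM with 95% counting intervals (left) and in mean UMIs per cell (right), for GC-like cells, the 3 goblet clusters and PC-like cells, with 0 as a grey line. On the left Clca1 lies lowest at −1.70 in GC-like cells, and on the right 9 of the 10 GC-like points lie above 0.

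The goblet clusters were unequally represented in the 2 matrices. Cluster 15 made up 28.9% of WT goblet cells (27.0% to 30.9%) and 11.4% of KO goblet cells (9.41% to 13.6%), and cluster 3 made up 44.0% and 62.9%. Within clusters the log2 ratio of Zg16 in CPM was 0.54 (0.53 to 0.56) in cluster 3, −0.01 in cluster 13 and 0.40 (0.39 to 0.42) in cluster 15, so that none of the 3 clusters was near the −0.25 of the class. Without cluster 15 the class value of Zg16 was 0.07, and with the clusters weighted equally 0.31. Clca1 was at −1.37, −1.51 and −0.58. Muc2 was at 4568 CPM in WT and 2277 CPM in KO in cluster 3, and its ratio was −1.27 in cluster 13 and −0.60 in cluster 15. The median over the 10 genes was −0.55 in cluster 3, −0.67 in cluster 13 and −0.11 in cluster 15, beside −0.37, −0.11 and −0.19 over all genes tested there. Genes lower by at least 1 log2 unit numbered 2 of 10 in cluster 3 (17.5% of all genes), 3 of 10 in cluster 13 (12.6%) and 0 of 10 in cluster 15 (15.4%). Higher by that much were 0 of 10 in cluster 3 (1.03% of all genes) and 0 of 10 in cluster 13 (7.48%). Klk1 was the 1 gene higher by that much, in cluster 15 at 1.10 (0.94 to 1.27), beside 2.61% of all genes there. The median was 1 Klk1 UMI per cell of cluster 15 in each matrix, and the 90th percentile 4 in WT and 16.4 in KO.

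The ratios moved with the summed exon length of the genes. Over all genes tested in GC-like cells the median log2 ratio was 0.30 in the quartile of the shortest genes (183 to 2748 bases) and −0.78 in that of the longest (6856 bases or more). Fcgbp (10497 bases) and Muc2 (7127 bases) were in the longest quartile, Clca1 (3777 bases) and Muc13 (3038 bases) in the second shortest, and the other 6, from Spink4 at 477 to Tpsg1 at 1389 bases, in the shortest. Against the median of their own length quartile, 9 of the 10 genes were lower in GC-like cells taken as a whole. Clca1 was lower by −1.55, Tff3 by −1.28, Spink4 by −0.83, Muc13 by −0.77, Muc2 by −0.60 and Agr2 by −0.25, and Klk1 stood at 0.01. This differed between goblet clusters 3, 13 and 15. Muc2 stood at −0.15, −0.60 and 0.16 there, Fcgbp at 0.07, −0.39 and 0.23 and Zg16 at 0.32, −0.43 and 0.09. Clca1 was at −1.13, −1.55 and −0.58, and Tff3 at −0.92, −1.27 and −0.57. The part of length in the differences was not tested.

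In PC-like cells most of the 10 genes also had a lower share in KO. The median log2 ratio in CPM was −0.50 over the 10 genes, beside −0.07 over all 11071 genes tested, and 2 of 10 were lower by at least 1 log2 unit, as were 6.09% of all genes, and 0 were higher by that much, beside 3.04%. The 2 were Clca1 at −1.21 (−1.27 to −1.15) and Muc2 at −1.05 (−1.07 to −1.03). Fcgbp was at −0.87, Tff3 at −0.71 and Spink4 at −0.44, while Zg16 was at 0.21 and Agr2 at 0.01. The Zg16 value varied with the cells included, at −0.09 without the barcodes of highest doublet score and 0.42 without cluster 19. By cluster it was −0.20 in cluster 1, 0.31 in cluster 2, 0.50 in cluster 10 and 0.24 in cluster 19. In KO cluster 10 a single cell held 2398 of the 5532 Zg16 UMIs. In UMIs per cell Spink4 was at 287 in WT and 402 in KO, and Muc2 at 22.7 and 20.9. The GC-like and PC-like values come from the same libraries and share their free RNA. Over all kept cells the median was −0.51, beside −0.05 over all genes, and 2 of 10, Clca1 and Muc2, were lower by at least 1 log2 unit, as were 7.37% of all genes, and 0 were higher by that much, beside 3.94%.

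The tuft background itself differed between the matrices. In TC-like cells Muc2 was at 1073 CPM in WT and 225 CPM in KO, Clca1 at 273 and 33.0 CPM, and Zg16 at 2727 and 422 CPM. Of the 9 genes with at least 50 UMIs there, 5 were lower in KO by at least 1 log2 unit, as were 9.83% of all genes, and 0 were higher, beside 5.22%. A single WT TC-like cell held 1087 Zg16 UMIs, while the medians were 3 UMIs in WT and 4 in KO, so the means rest on few cells. GC-like levels were 8.03-fold above TC-like levels for Muc2 in WT and 14.7-fold in KO.

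Genes that work with these products were read from lists. Of 31 mucin O-glycosylation genes with at least 50 UMIs in GC-like cells, 29 had a ratio below 0 and 12 were lower in KO by at least 1 log2 unit, with a median of −0.75, beside 15.6% of all genes and their median of −0.29. Galnt5, which starts O-glycans, was at 60.3 CPM in WT and 14.7 CPM in KO (−2.04), Galnt7 at 387 and 139 CPM (−1.48) and the chain-extending B3gnt7 at 26.4 and 9.04 CPM (−1.55). Of 16 genes of granule packing and exocytosis, 8 were lower by that much, with a median of −1.07. Sytl2, a Rab27 effector at granules, was at 159 and 27.8 CPM (−2.52), the calpain gene Capn8 at 24.0 and 6.85 CPM (−1.81) and the actin-severing Scin at 263 and 77.4 CPM (−1.76). In UMIs per cell Sytl2 was also lower in KO, at 1.05 in WT and 0.487 in KO, whereas Galnt7 was nearly level at 2.56 and 2.43. In the quartile of the longest genes in GC-like cells the median was −0.78, and 33.3% were lower by at least 1 log2 unit. The part of exon length in these lists was not tested.

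Of 28 genes for folding in the endoplasmic reticulum, 4 were lower by at least 1 log2 unit, with a median of −0.33. This is near the background of 15.6% and the median of −0.29 over all genes, so the list did not stand apart. The disulfide reductase gene Dnajc10 was at 280 and 94.7 CPM, the stress sensor Ern2 at 126 and 46.6 CPM and the disulfide isomerase Txndc5 at 497 and 235 CPM, while Agr2 of the same compartment was at 13200 and 13617 CPM. Of 12 goblet transcription factors 4 were lower by that much, with a median of −0.44, beside the same 15.6% and −0.29, among them Klf4 at 310 and 115 CPM, Gfi1 at 17.6 and 7.52 CPM and Creb3l1 at 191 and 91.8 CPM. Klf4 was at 2.05 UMIs per WT cell and 2.02 per KO cell. Creb3l1, Sytl2, Scin, Ern2 and Capn8 were also among the markers that named the class. Of 15 other secreted mucus layer products 2 were lower by that much (median −0.38), a share near the 15.6% of all genes, with Retnlb at 72.9 and 33.5 CPM, Mptx1 at 26.9 and 14.1 CPM and Ccl9 at 328 and 245 CPM. Of 4 transmembrane mucins besides Muc13 1 was, Muc3a at 116 and 44.0 CPM.

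Cell cycle and progenitor lists were read beside these. Of all genes in GC-like cells 15.6% were lower and 1.95% higher in KO by at least 1 log2 unit, with a median of −0.29. The median was −0.01 over 42 S phase genes, of which 1 was lower by that much, and −0.62 over 52 G2/M genes, of which 15 were. Among these were Dlgap5 at 32.3 and 11.4 CPM, Anln at 24.7 and 9.28 CPM and Hmmr at 70.5 and 34.8 CPM. In TC-like cells Dlgap5 was at 14.9 CPM in WT and 16.0 CPM in KO, and Hmmr at 34.8 and 32.0 CPM. Dlgap5 and Hmmr thus reached 2 times the tuft background in WT only. Among the genes tested, the G2/M direction differed between goblet clusters, whose shares of cells differed between the matrices. In cluster 3 the G2/M median was −0.85, with 23 of 52 genes lower and 0 higher by that much, whereas in cluster 13 it was 0.71, with 2 of 26 lower and 12 higher. Beside these, 17.5% of all genes were lower and 1.03% higher in cluster 3, and 12.6% and 7.48% in cluster 13. The S phase median was −0.23 over 42 genes in cluster 3 and 0.86 over 16 of 42 in cluster 13. Levels were low in cluster 13: Hmmr had 3.46 (WT) and 9.65 CPM (KO), Dlgap5 2.20 and 1.93 CPM. Genes with too few UMIs over both matrices were left out there, which can favour genes high in 1 matrix. The size of the cluster 13 medians is thus uncertain. The cell cycle share of UMIs was lower in KO cluster 3 (0.854% and 0.617%) and higher in KO cluster 13 (0.118% and 0.192%). The S phase gene Brip1 was at 9.40 and 5.34 CPM, and in TC-like cells at 2.98 CPM in WT and 9.99 CPM in KO. Of 7 secretory progenitor genes 2 were lower and 1 higher by that much, with a median of 0.04. The Notch ligand gene Dll1 was at 43.1 and 16.6 CPM and Atoh1, the factor that commits cells to secretion, at 106 and 79.3 CPM.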

How the data were processed

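The authors deposited raw UMI counts per gene and cell barcode, 1 matrix per genotype. The file headers name Cell Ranger 4.0.0, whereas the submitters' processing notes name Cell Ranger 2.1.1 and build mm10, and this disagreement was not resolved. The labels give v2 chemistry and the study's methods v2 or v3, and no cell could be assigned to a labelled sample. Depth was 134876816 UMIs over 15987 WT barcodes and 123794575 over 12763 KO barcodes.

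Barcodes with at least 200 genes and at most 30% mitochondrial UMIs were kept. Scrublet (scanpy 1.11.5) called 1 WT and 0 KO barcodes, too few for a working call, and doublets stayed in. The matrices were integrated by canonical correlation in Seurat 5.3.0 (R 4.3.3) with 2000 variable genes, the 10 genes and mitochondrial genes left out, and clustered with leidenalg 0.10.2 (15 neighbours, resolution 1). Clusters were named from marker lists without the 10 genes, and differences from the study's own classes may come from these rebuilt names.

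CPM was computed from UMIs summed over a class, with exact Poisson intervals. Log2 ratios of KO to WT have exact conditional binomial intervals, shares of goblet cells exact Clopper-Pearson intervals, and no p-value was computed. A difference was counted at 1 log2 unit among genes with at least 50 UMIs. Ratio, interval and thinning steps were tested on simulated data. Of 27998 gene identifiers 27645 (98.7%) were found in GENCODE M21, which gave positions and exon lengths. All 10 genes were named, as were the 5 genes with the closest pattern. Named from each list were up to 3 genes with the largest difference in GC-like cells. Each had at least 2 times the TC-like CPM in at least 1 matrix. The members and lists were chosen with earlier results of these data known, and the split by exon length was added after the values were seen. Alternatives covered cell filters, doublet scores, integration, resolution, denominators and scales.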

Additional observations from a re-analysis of the deposited data

Results flagged for a closer look

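Zg16 differed in direction between the secretory classes, each taken as a whole. Its log2 ratio of KO to WT in CPM was −0.25 (−0.26 to −0.24) in GC-like cells and 0.21 (0.19 to 0.22) in PC-like cells. The difference between the classes was not tested, since each group was 1 sample, and in UMIs per cell both were higher in KO, at 1.16 and 1.13. The PC-like value changed sign in 3 alternatives, to −0.09 without the highest doublet scores, and the GC-like value also in 3. By goblet cluster the ratio was 0.54 in cluster 3, −0.01 in cluster 13 and 0.40 in cluster 15, none as low as the class. Among PC-like clusters it was −0.20 in cluster 1 and 0.31 in cluster 2.

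Among barcodes removed for over 30% mitochondrial UMIs, which enter no comparison of the report, Agr2 and Klk1 were higher in KO than in WT. The log2 ratios in CPM were 0.24 (0.16 to 0.32) for Agr2 and 0.77 (0.42 to 1.14) for Klk1. The other 8 genes had a ratio below 0 in these barcodes, with Muc2 lowest at −1.54. The median over the 10 genes was −0.48, beside −0.17 over all genes tested there.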

How the results depend on the processing

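The cell filters, the removal of 1433 WT and 607 KO barcodes with the highest doublet scores, the clustering alternatives and the alternative without clusters of mostly 1 matrix (none qualified) kept the median log2 ratio of the 10 genes below 0 in GC-like, PC-like and all kept cells, and in them 8 to 10 genes were lower in the most cycling goblet cluster. The cell filter alternatives kept the cell classes as they were. The number of genes highest in GC-like cells was 9 in each matrix under the filters and clusterings and 8 with mean UMIs per cell. Medians outside the counting interval, given for GC-like, PC-like and all kept cells in this order, were −0.82, −0.75 and −0.85 with genes above 1% of the UMIs out of the denominator, 0.68, 0.42 and −0.071 with mean UMIs per cell, −0.62, −0.55 and −0.62 with cells thinned to 1000 UMIs, and −0.44, −0.26 and −0.42 as differences of mean natural-log values, which is another scale. Without integration the median was −0.66 in GC-like and −0.48 in PC-like cells, and in all kept cells it was −0.52 with at most 15% mitochondrial UMIs and −0.49 without the highest doublet scores. With the 3 goblet clusters weighted equally, an alternative chosen after seeing the data like those without cluster 15 or 19, it was −0.42. Muc2 and Fcgbp, lower in KO in GC-like cells by CPM, were at 0.029 and 0.12 in mean UMIs per cell. Only 5 genes were lower in the most cycling goblet cluster of WT with mean UMIs per cell. Zg16 changed sign in 3 alternatives in each of these 3 sets of cells, and Tpsg1 in 4, 6 and 3. Without cluster 15 Zg16 was at 0.07 in GC-like cells. The cause of these shifts was not tested. No paired analysis was possible because each group had 1 pooled matrix, and for the same reason no replicate could be left out. Depth limited Tpsg1 most, which had 10 UMIs in WT TC-like cells.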

Other observations

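Cluster 16, an mEC-like cluster of 375 WT and 95 KO cells led by Reg1, Gsta1 and Fabp1, held more of the 10 genes than the other enterocyte clusters, at 2.94% of UMIs in WT and 2.87% in KO. In cluster 4, another mEC-like cluster, the shares were 0.546% and 0.458%. Cluster 5, a shallow mEC-like cluster, was nearer to cluster 16. In WT its Zg16 was at 3265 CPM, against 8289 CPM in cluster 16 and 810 CPM in cluster 4. Its Spink4 was at 6155 CPM, above the 5374 CPM of cluster 16. In cluster 16 the median was 2 Muc2 UMIs per WT cell and the 90th percentile 19.6, and Clca1 was at 9.72 per 100 Zg16 UMIs in WT, beside 10.5 in GC-like cells. Among unnamed clusters Muc2 was at 3261 CPM in WT and 1137 CPM in KO, while Zg16 there was at 2647 and 2465 CPM. In these cells the median depth was 1016.5 UMIs in WT and 724 in KO.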
